A study of Rattus norvegicus with 20 samples.

Results

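The nuclear genes for complexes III, IV and V of oxidative phosphorylation were examined in rat dorsal root ganglia (DRG), the clusters of sensory neurons, satellite glia and Schwann cells beside the spinal cord. The members were taken by symbol: protein-coding genes whose names begin with Uqcr (complex III), with Cox4 to Cox8 (complex IV) or with Atp5 (complex V). The rule found 43 of the 39747 genes in the table, 8 in complex III, 18 in complex IV and 17 in complex V. Of the complex IV genes, Cox6a2, Cox7a1 and Cox8b carry the names of muscle isoforms and were kept apart by name, which left 40 members. Of those 40, 37 passed the filter on low counts in each model. Cox6b2, Cox7b2 and Cox8c did not.

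All rats were female, wild-type Sprague-Dawley animals, and the labels give no age. They ate an AIN-93G-based soy oil diet (SOD) or a fish oil diet (FOD) for 4 weeks before surgery. In chronic constriction injury (CCI), 4 loose chromic gut ligatures were placed on the left sciatic nerve, and in control surgery (CT, sham) that nerve was exposed and not ligated. The 14 left DRG libraries were 4 SOD-CT and 3 FOD-CT after control surgery and 3 SOD-CCI and 4 FOD-CCI after injury, and 6 contralateral libraries came from the right DRG of the 3 SOD-CCI rats and of 3 FOD-CCI rats. The contralateral DRG therefore shared diet, surgery and animal with the injured one and are no untreated control. Collection is placed 1 week after surgery in the study's methods, whereas the design text has the diets going on for 4 weeks after it. Each library is a whole-tissue mixture of cells, so fewer cells of a type and less RNA per cell cannot be told apart.

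Complex III passes electrons from ubiquinol to cytochrome c, complex IV (cytochrome c oxidase) hands them to oxygen, and both pump protons across the inner mitochondrial membrane. Complex V (ATP synthase) lets the protons flow back through its membrane part and makes ATP in its catalytic head. Each complex joins nuclear-encoded subunits, the subject here, with subunits encoded in mitochondrial DNA, which are not named by these symbols. Sensory neurons keep very long axons supplied with ATP, and much of that ATP comes from these complexes. Several complex IV subunits have a second gene that is used in heart and skeletal muscle.

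Library totals ran from 22547190 to 54437581 counts. Neuron markers (16 genes) summed to 5696 to 42670 CPM, counts scaled to a common library size, the low end being FOD-CCI contralateral replicate 1, in which 2 of the 16 were at 0. SOD-CT replicate 1 stood apart: 16 skeletal muscle markers summed to 145000 CPM in it, against 31730 in FOD-CT replicate 2, 10890 in FOD-CCI contralateral replicate 3, 7625 in SOD-CT replicate 4 and at most 2794 in the other libraries. Spinal cord markers summed to 3152 to 5362 CPM in replicate 1 of FOD-CT, FOD-CCI and FOD-CCI contralateral and to at most 102.4 elsewhere. Red cell markers were highest in FOD-CCI replicate 2, at 22080 CPM. Libraries also differed in the balance of short and long genes. The slope of log2 level on log2 gene length over all genes was −0.23 in SOD-CT replicate 1, −0.17 in FOD-CCI replicate 2 and −0.16 in FOD-CCI contralateral replicate 3, and 0.07 to 0.14 in the SOD-CCI libraries. The part of these transcripts and of gene length in the results was not tested, other than by the fits without libraries and with length taken out.

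Levels were compared between genes as fragments per kilobase of gene length, scaled for library depth (FPKM). By the median over all 20 libraries, complex III ran from Uqcrh, the hinge protein beside cytochrome c1, at 374 FPKM to Uqcrb, the subunit next to the quinone site, at 71.2. Uqcrc1 and Uqcrc2, the core proteins, were at 158 and 122, and Uqcrfs1, the Rieske iron-sulfur protein, was at 139. Complex IV ran from Cox4i1, the general form of its largest nuclear-encoded subunit, at 750.8, through Cox6c at 738 and Cox7c at 737, down through Cox4i2, the lung form, at 2.38 and Cox6b2, the testis form of subunit VIb, at 1.75 to Cox7b2 and Cox8c at a median of 0. Cox7b2 was at 0 counts in most libraries and reached 0.68 FPKM. Cox8c was above 0 in a single library. Complex V was headed by Atp5j2 (subunit f of the membrane part) at 811, Atp5b (the catalytic beta subunit) at 742, Atp5l (subunit g) at 740.3 and Atp5e (the epsilon subunit of the central stalk) at 662. Its lowest symbols were Atp5sl at 19.4 and Atp5s at 6.69. Neither of these is a structural subunit: Atp5s is the coupling factor B and Atp5sl, now Dmac2, is an assembly factor of complex I. The ranges over libraries overlapped between almost all neighbors in this order. The exceptions were the steps from Cox7a2l2 to Cox4i2 and from Atp5i to Atp5sl. These ranges include SOD-CT replicate 1. Cox7a2l, at 181.1 FPKM or more, overlapped Cox7a2l2 only through that library, where Cox7a2l2 was at 188. It was at most 41.25 in the other 19 libraries.

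Not all subunits of one complex kept a fixed ratio of mRNA. The ratio of Atp5e to Atp5a1 (the alpha subunit) ran from 0.70 to 6.13 over the 19 libraries without SOD-CT replicate 1, and that of Cox7b to Cox4i1 from 0.37 to 1.97. Atp5l to Atp5b ran from 0.42 to 2.48, and Cox6a1 to Cox4i1 less widely, from 0.69 to 1.18. Each ratio set a shorter gene over a longer one, with 372 bases against 1847, 448 against 696, 479 against 1759 and 549 against 696. All were highest in FOD-CCI replicate 2, where the slope of log2 level on log2 gene length was −0.34 over the members. The part of gene length in these ratios was not tested. The 3 genes for the identical subunit c of the rotor ring were read as shares of their sum. These were 20.8% to 31.4% for Atp5g1, 23.2% to 33.0% for Atp5g2 and 40.0% to 50.9% for Atp5g3 over the same 19 libraries. Atp5g3 was the largest of the 3 in all of them. These ranges are descriptions without a test.

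**Figure D1:**
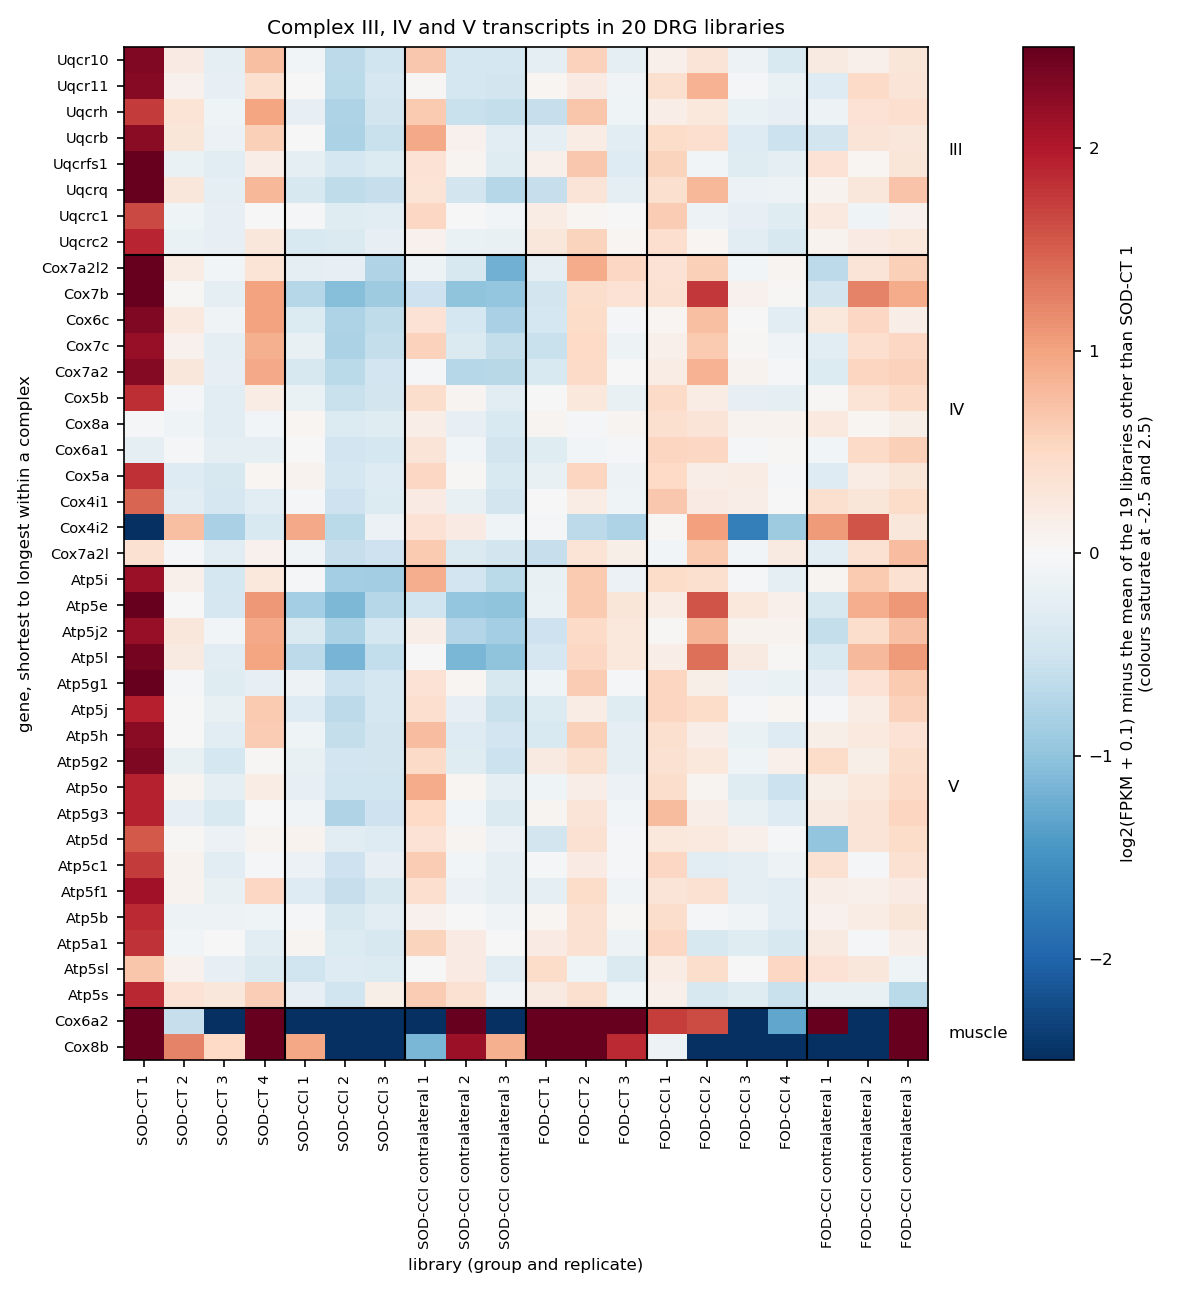
Heat map of the 37 tested members, shortest to longest within each complex, with Cox6a2 and Cox8b as the last rows (vertical axis), in each of the 20 libraries by group (horizontal axis). Color is log2(FPKM + 0.1) minus the gene's mean over the 19 libraries other than SOD-CT replicate 1, which is the high column in nearly all rows, and FOD-CCI replicate 2 is high for Atp5e, Atp5l and Cox7b.

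The promoters of the members were read from the RefSeq table of GRCr8, which is the reference in hand and not necessarily the build used for the counts. It held 35 of the 43 genes of the rule, with 250 bases before and 50 after the start. Cox6a2 and Cox8b, kept apart elsewhere, and the untested Cox6b2, Cox7b2 and Cox8c are among these 35. The exact letters CCGGAAG, the core bound by GABPA (also called NRF2), were present on either strand in 11 of the 35 (31.4%), against 9.22% of all 27457 promoters. GCGCATGCG, a core of the NRF1 site that is nearly its own reverse complement, so that hits on both strands overlap, was in 5 (14.3% against 1.66%). AAGATGGCG of YY1 was in 3 (8.57% against 1.93%) and TCAAGGTCA of ESRRA in 1 (2.86% against 0.412%). These factors are textbook regulators of respiratory genes, but a match of letters is a description and not a site. The last 130 bases before the start are shown for members described in the comparisons, with matched letters in capitals. Uqcrq and Cox8a hold GABPA letters, at −22 to −16 and at −57 to −51 and −19 to −13. Atp5i holds both NRF1 and GABPA letters. Cox7b and Atp5e, which had the largest differences between groups, hold none of the 4 motifs in the whole window.
Uqcrq, chr10:38089979-38090108, minus strand: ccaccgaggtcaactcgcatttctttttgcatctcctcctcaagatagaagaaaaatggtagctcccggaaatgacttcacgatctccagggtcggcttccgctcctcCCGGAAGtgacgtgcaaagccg
Cox8a, chr1:213833624-213833753, minus strand: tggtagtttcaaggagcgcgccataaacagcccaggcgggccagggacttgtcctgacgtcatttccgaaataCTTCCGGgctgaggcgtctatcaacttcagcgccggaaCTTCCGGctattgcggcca
Atp5i, chr14:1464730-1464859, plus strand: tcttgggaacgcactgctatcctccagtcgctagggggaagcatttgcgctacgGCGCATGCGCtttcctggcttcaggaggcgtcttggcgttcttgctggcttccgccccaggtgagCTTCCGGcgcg
Cox7b, chrX:75148906-75149035, plus strand: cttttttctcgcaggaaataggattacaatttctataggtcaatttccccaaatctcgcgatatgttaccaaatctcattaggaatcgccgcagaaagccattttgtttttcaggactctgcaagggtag
Atp5e, chr3:183680173-183680302, minus strand: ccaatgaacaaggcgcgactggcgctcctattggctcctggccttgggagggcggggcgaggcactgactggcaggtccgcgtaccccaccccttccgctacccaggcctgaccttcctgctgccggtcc

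In FOD-CCI against SOD-CCI the median log2FC was 0.57 over the 11 tested members with the GABPA letters and 0.47 over the 19 without them that have a promoter in the table. For SOD-CCI against SOD-CT these medians were −1.29 and −1.252 with all libraries, and −0.54 and −0.32 without SOD-CT replicate 1. The differences within these pairs were not tested.

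Cox6a2 and Cox8b marked the libraries with muscle transcripts. Cox6a2, the heart and skeletal muscle form of subunit VIa, was at 2331 FPKM in SOD-CT replicate 1, at 278.9 in FOD-CT replicate 2, at 73.2 in FOD-CCI contralateral replicate 3 and at 70.4 in SOD-CT replicate 4. It was listed at 0 in all 3 SOD-CCI libraries and was at most 5.79 in FOD-CCI. Cox8b, the muscle form of subunit VIII, followed at 2024, 206.6, 70.0 and 49.9 FPKM in the same 4 libraries. The muscle form made up 79.1% of all Cox6a and 79.5% of all Cox8 FPKM in SOD-CT replicate 1, and at most 29.0% and 28.2% in the other 19 libraries. In the same library the general forms were near the rest of the group: Cox6a1 was at 616 FPKM against 602 to 696 in the rest of its group, and Cox8a at 523 against 446 to 510. The row named Cox7a1 behaved differently from Cox6a2 and Cox8b. It stayed at 0 to 3.03 FPKM in all libraries and was at 1.95 in SOD-CT replicate 1. Its identifier was not found in GRCr8, so it is not read here as the muscle form of subunit VIIa.

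**Figure D2:**
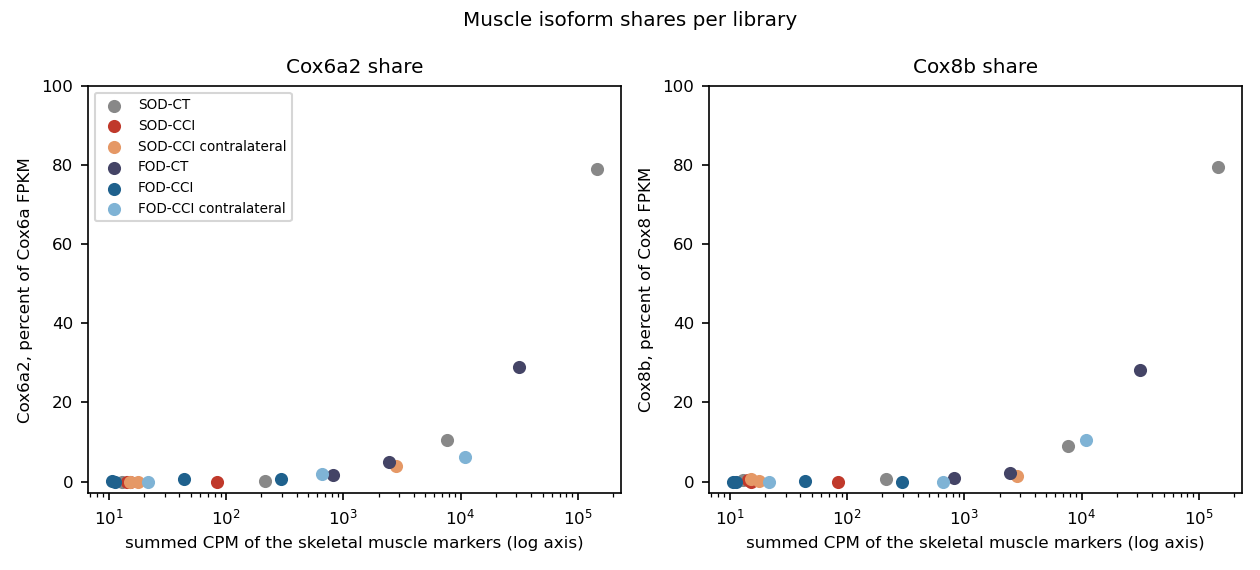
Share of Cox6a2 in all Cox6a FPKM (left panel) and of Cox8b in all Cox8 FPKM (right panel), in percent, against the summed CPM of the skeletal muscle markers on a log axis, 1 point per library, colored by group. SOD-CT replicate 1 lies at the top right at 79.1% and 79.5%, FOD-CT replicate 2 follows at 29.0% and 28.2%, and most libraries lie near 0.

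SOD-CT replicate 1 was the highest of the 20 libraries for 33 of the 37 tested members. Its level was 3.99 times the median of the other 19 by the median over members, and 9.08 times for Cox7a2l2, 8.92 for Atp5e, 7.46 for Uqcrq and 6.74 for Uqcrfs1. The members that were not highest in it were Cox6a1, Cox8a, Cox7a2l and Cox4i2, which was listed at 0 there. Comparisons with SOD-CT are therefore given with and without this library.

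Summed per complex over the members other than the muscle isoforms, the lowest group mean was SOD-CCI in all 3 complexes. Complex III summed to 1036 ± 159 FPKM (SD, n = 3) in SOD-CCI, 1348 ± 502 (n = 3) in its contralateral DRG, 1448 ± 406 (n = 3) in FOD-CT, 1427 ± 315 (n = 4) in FOD-CCI, 1572 ± 169 (n = 3) in its contralateral DRG and 2704 ± 2245 (n = 4) in SOD-CT. Complex IV summed to 4029 ± 677 FPKM in SOD-CCI, 4844 ± 1518 in its contralateral DRG and 5476 ± 1115 in FOD-CT. It summed to 6560 ± 1561 in FOD-CCI, 6796 ± 1248 in its contralateral DRG and 8808 ± 6216 in SOD-CT. Complex V summed to 4557 ± 647 FPKM in SOD-CCI, 5757 ± 1751 in its contralateral DRG and 6714 ± 1485 in FOD-CT. It summed to 7311 ± 1729 in FOD-CCI, 7799 ± 1891 in its contralateral DRG and 12260 ± 11040 in SOD-CT. The SOD-CT means rest on replicate 1, at 6023, 17950 and 28690 FPKM in complexes III, IV and V. Replicates 2 to 4 of SOD-CT summed to 1506, 1186 and 2102 FPKM in complex III, to 5374, 4493 and 7414 in IV and to 6366, 5311 and 8680 in V. FOD-CCI overlapped these replicates in all 3 complexes, at 5726 to 9475 in V. SOD-CCI replicate 1, at 1207 in III and 4791 in IV, was above SOD-CT replicate 3 in both. In V the SOD-CCI libraries reached 5231 and did not overlap SOD-CT.

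**Figure D3:**
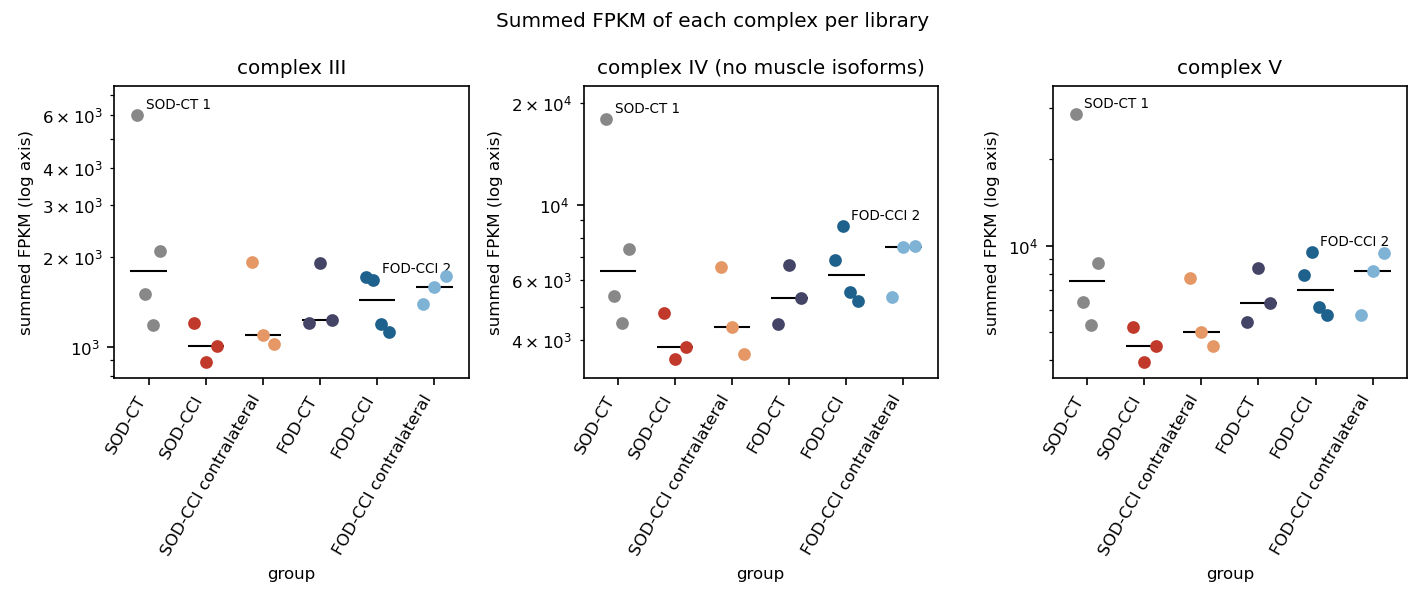
Summed FPKM (log axis) of the members of complex III, IV and V, muscle isoforms left out, by group, with 1 point per library and a line at the group median. SOD-CT replicate 1 lies far above all other libraries in each complex, at 6023, 17950 and 28690 FPKM.

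To ask what injury did under the soy oil diet, SOD-CCI was compared with SOD-CT. Nearly all members were lower in SOD-CCI. For Atp5e the SOD-CT libraries held 5662, 634.9, 476.5 and 1347 FPKM and the SOD-CCI libraries 349.9, 289.9 and 389.3, which do not overlap. Cox7b, a small membrane subunit of complex IV, was at 2834, 511.3, 425.9 and 1012 in SOD-CT and at 308.3, 241.7 and 270.3 in SOD-CCI. Atp5b was at 2755, 688.5, 688.5 and 698.8 FPKM in SOD-CT and at 738.5, 570.1 and 617.3 in SOD-CCI, which overlap.

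The median log2FC over the 37 members was −1.29, against −0.01 over all 14484 genes tested, and 36 of 37 were below 0 (50.7% of all genes were). By complex the median was −1.39 in III, −0.91 in IV and −1.252 in V. The largest differences were Atp5e at −2.505 ± 0.727 (SE), Cox7b at −2.08 ± 0.62, Atp5l at −1.95 ± 0.56, Cox7a2l2 at −1.91 ± 0.68 and Uqcrq, a small subunit beside cytochrome b, at −1.90 ± 0.58. At the other end were Cox8a at −0.04 ± 0.17 and Cox6a1 at −0.08 ± 0.20. By edgeR's quasi-likelihood test 0 members were called (percent called over all genes 0%), the lowest Benjamini-Hochberg adjusted p among them being 0.266. At an unadjusted p under 0.05, 25 were lower, against 8.8% of all genes, and the groups did not overlap for 13, against 8.1%. DESeq2 on the same counts called 15 members lower (2.87% of all genes), with adjusted p from 0.0171 for Atp5e to 0.0912 for Atp5h. These were Uqcr10, Uqcrb, Uqcrh and Uqcrq in complex III, Cox6c, Cox7a2, Cox7a2l2, Cox7b and Cox7c in complex IV, and Atp5e, Atp5f1, Atp5h, Atp5j, Atp5j2 and Atp5l in complex V.

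Without SOD-CT replicate 1 the median was −0.37, at −0.58 in III, −0.32 in IV and −0.40 in V, and 35 of 38 members were below 0 (52.1% of all 14916 genes). DESeq2 then called 0 members (0.228% of all genes), as did edgeR (0%), whose adjusted p was at least 0.529. At an unadjusted p under 0.05, 14 members were lower by edgeR, against 4.31% of all genes, and 13 did not overlap, against 10.6%. Small subunits still led: Atp5e was at −1.254 ± 0.439, Cox7b at −1.247 ± 0.462, Atp5l at −1.19 ± 0.40, Cox6c at −1.03 ± 0.33 and Atp5j2 at −0.96 ± 0.33. Of the core genes, Cox5a was at 0.00 ± 0.24, Cox4i1 at 0.04 ± 0.21, Uqcrc1 at −0.09 ± 0.23, Atp5a1 at −0.10 ± 0.26, Atp5b at −0.11 ± 0.22, Uqcrfs1 at −0.26 ± 0.27 and Uqcrc2 at −0.31 ± 0.23. The value for Cox4i1 with all libraries was −0.60 ± 0.39, so its sign turned. With FOD-CCI replicate 2 left out as well, which enters this comparison only through the shared spread, DESeq2 called 5 lower (0.725% of all genes): Atp5e, Atp5j2, Atp5l, Cox6c and Cox7b, with adjusted p from 0.0381 to 0.0924. That setting was chosen after seeing the data. A fit with gene length taken out of each library gave a median of −0.67 with all libraries, SOD-CT replicate 1 included. No fit both left out that library and took length out, so the −0.37 is not corrected for length.

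To ask what the fish oil diet did in injured DRG, FOD-CCI was compared with SOD-CCI. That contrast uses no SOD-CT level. The SOD-CT libraries, the muscle library included, still entered the same fit through the filter, scaling and shared spread. Most members were higher in FOD-CCI, the same small subunits most of all. Cox7b was at 652.4, 1717, 542.5 and 512.6 FPKM in FOD-CCI, all above the 308.3, 241.7 and 270.3 of SOD-CCI. Atp5e was at 718.1, 1877, 760.4 and 688.8, against at most 389.3 in SOD-CCI. Atp5l was at 773.6, 1793, 804.9 and 706.9, against at most 452.1. In all 3 genes FOD-CCI replicate 2 was far above the other FOD-CCI libraries, and those lay close together.

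The median log2FC was 0.52, against 0.04 over all genes, and 35 of 37 members were above 0 (54.3% of all genes were). The median was 0.44 in complex III, 0.58 in IV and 0.52 in V. By edgeR 0 members were called (percent called 0%), with an adjusted p of at least 0.859, and DESeq2 on the same libraries also called 0 (0.0138% of all genes higher). At an unadjusted p under 0.05, 7 were higher, against 3.87% of all genes: Cox7b at 1.64 ± 0.61, Atp5e at 1.55 ± 0.70, Atp5l at 1.35 ± 0.54, Atp5sl at 0.69 ± 0.27, Cox7a2l (a factor that ties complexes III and IV together) at 0.59 ± 0.26, Cox6a1 at 0.58 ± 0.21 and Cox8a at 0.42 ± 0.17. The groups did not overlap for 17 members, against 7.33% of all genes: 2 in complex III, 8 in IV and 7 in V. Below the leading 3 came Uqcrq at 0.83 ± 0.56, Cox7a2 at 0.83 ± 0.46, Atp5j2 at 0.83 ± 0.45, Cox6c at 0.75 ± 0.47 and Atp5j (the coupling factor of the stalk) at 0.74 ± 0.41. Smallest were Atp5s at −0.10 ± 0.37, Atp5a1 at 0.12 ± 0.44, Uqcrc1 at 0.24 ± 0.39 and Cox4i2, near the filter, at −0.25 ± 0.95. The other core genes lay between, with Atp5b at 0.26, Uqcrc2 at 0.31, Uqcrfs1 at 0.36, Cox5a at 0.43 and Cox4i1 at 0.57. Cox7a1, the row apart, was at −1.61 ± 0.91.

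Cox6a1, Cox8a and Atp5sl stood out in another way. Their levels in SOD-CT replicate 1 were 0.90, 0.95 and 1.62 times the median of the other libraries, and their SEs were 0.21, 0.17 and 0.27. Cox8a was at 703.1, 669.8, 570.2 and 570.9 FPKM in FOD-CCI and at 552.7, 421.0 and 433.2 in SOD-CCI. The groups do not overlap, but the step between them was small. Atp5sl was at 21.9, 26.1, 19.3 and 27.5 in FOD-CCI and at 13.6, 15.5 and 15.1 in SOD-CCI. Cox6a1 overlapped between the groups, at 1033, 1025, 701.4 and 734.1 against 712.1, 516.6 and 528.3.

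Leaving SOD-CT replicate 1 out of the fit changed the spread shared by all groups and left the folds nearly as they were, with a median of 0.51. DESeq2 then called 3 members higher (0.959% of all genes), namely Cox7b at 1.65 ± 0.42 (adjusted p = 0.0225), Atp5e at 1.57 ± 0.40 (adjusted p = 0.0243) and Atp5l at 1.36 ± 0.37 (adjusted p = 0.0447). edgeR called 0 (0% of all genes), with adjusted p of at least 0.433, although 19 were then higher at an unadjusted p under 0.05, against 6.62% of all genes. With FOD-CCI replicate 2 left out as well, DESeq2 called 0 (0.173% of all genes). Without FOD-CCI replicate 2 alone, the edgeR values were 1.06 for Cox7b, 1.08 for Atp5e and 0.94 for Atp5l. Among the FOD-CCI libraries, replicate 1, which held spinal cord transcripts, was highest for 21 of the 37 members and replicate 2 for 15. Among the SOD-CCI libraries, replicate 2 was lowest for 30. Without FOD-CCI replicate 1 Atp5a1 was at −0.16 and Uqcrc1 at −0.02, so both turned sign.

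Gene length moved with this comparison. Atp5e is 372 bases long in the count table, Cox7b 448 and Atp5l 479, whereas Uqcrc1 has 1567 and Atp5a1 1847. Not all members followed this order. Uqcrq, Atp5sl and Cox7a2l have 1494, 1851 and 1241 bases, and their differences were larger than that of Cox8a, which has 495. Over the 37 members the log2FC and the log2 length had r = −0.50, and −0.67 over the 17 members of complex V, as a description over genes that share the same libraries. Over all genes it was −0.29. With length taken out of each library the median was 0.16, at 0.16 in III, 0.13 in IV and 0.11 in V, and 29 of 37 were above 0 (56.1% of all genes were). In that fit 3 members were higher at an unadjusted p under 0.05, against 2.96% of all genes, and Cox8a was at −0.09.

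**Figure D4:**
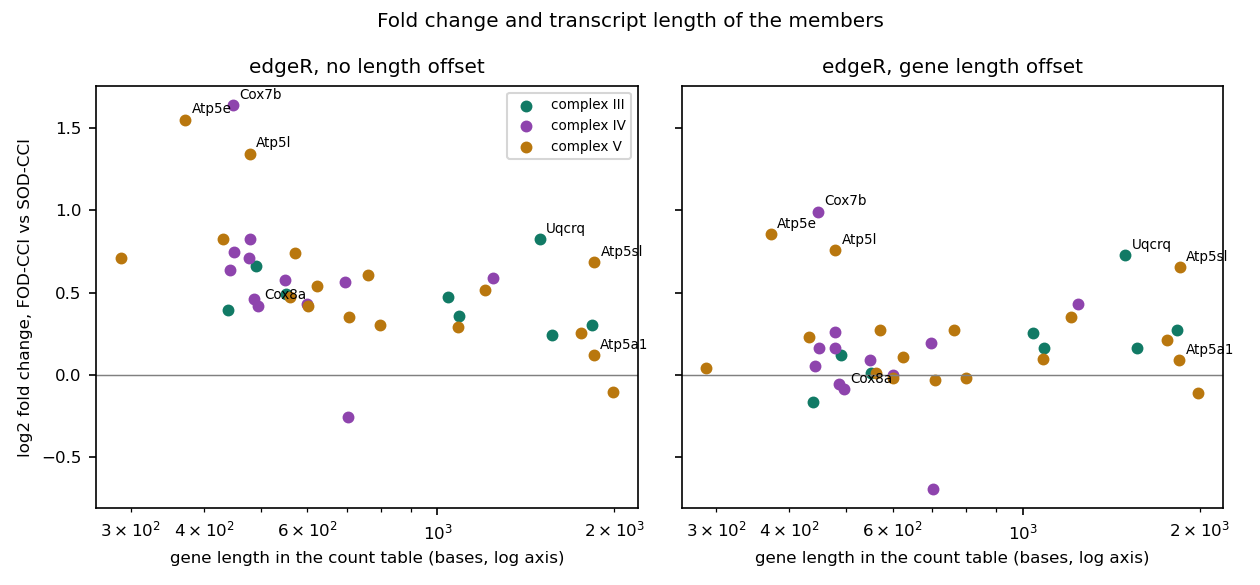
log2FC of FOD-CCI against SOD-CCI (vertical axis) against gene length in bases on a log axis (horizontal axis) for the 37 tested members, colored by complex, by edgeR without (left panel) and with (right panel) a gene length offset. In the left panel the short genes Atp5e, Cox7b and Atp5l lie highest and Atp5a1 lies near 0, and in the right panel the median is 0.16.

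Under the fish oil diet, members lay on both sides of 0 when injured and sham DRG were compared. FOD-CCI against FOD-CT had a median of 0.10, with 23 members above and 14 below 0 (50.8% and 49.2% of all genes). By edgeR 0 were called (percent called 0%), at an adjusted p of 1, and by DESeq2 0 as well (0.131% of all genes higher and 0.0138% lower). Among the members 0 reached an unadjusted p under 0.05, against 3.2% of all genes higher and 1.31% lower. Cox7b was at 0.59 ± 0.58, Atp5s at −0.46 ± 0.37, Cox6a1 at 0.42 ± 0.21, Cox4i2 at 0.42 ± 0.96 and Uqcrq at 0.40 ± 0.55. Cox6a1 was at 576.5, 683.6 and 688.1 FPKM in FOD-CT, all below FOD-CCI, and only Cox8a also did not overlap (2.51% of all genes did so). Leaving out 1 library moved the median between −0.03 without FOD-CT replicate 1 and 0.32 without FOD-CT replicate 2, and it was also just below 0 without FOD-CT replicate 3, FOD-CCI replicate 1 or FOD-CCI replicate 2.

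Whether injury differed between the diets was then tested directly, by an interaction term over the 4 left groups. Its median was 1.27 over the members and 0.02 over all genes, with 36 of 37 above 0 (51.4% of all genes were). By edgeR 0 were called (percent called 0%), the lowest adjusted p being 0.894, and 12 were higher at an unadjusted p under 0.05, against 4.32% of all genes. Atp5e was at 2.87 ± 0.98, Cox7b at 2.66 ± 0.85 and Atp5l at 2.33 ± 0.76. DESeq2 called 7 higher (0.29% of all genes): Atp5e, Atp5j, Atp5l, Cox6c, Cox7a2, Cox7b and Uqcrq. Without SOD-CT replicate 1 DESeq2 called 0 (0% of all 14916 genes), the median was 0.45, and 9 of 38 were higher at an unadjusted p under 0.05, against 3.12% of all genes. By edgeR the lowest adjusted p was then 0.995.

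In sham DRG the difference between diets depended on that library. FOD-CT against SOD-CT had a median of −0.74 with all libraries, with 35 of 37 below 0 and 5 lower at an unadjusted p under 0.05 (1.62% of all genes), and of −0.01 without it, with 19 of 38 above 0 (50% of all genes). Neither edgeR (percent called 0%) nor DESeq2 (0% both times) called a member in either fit.

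**Figure D5:**
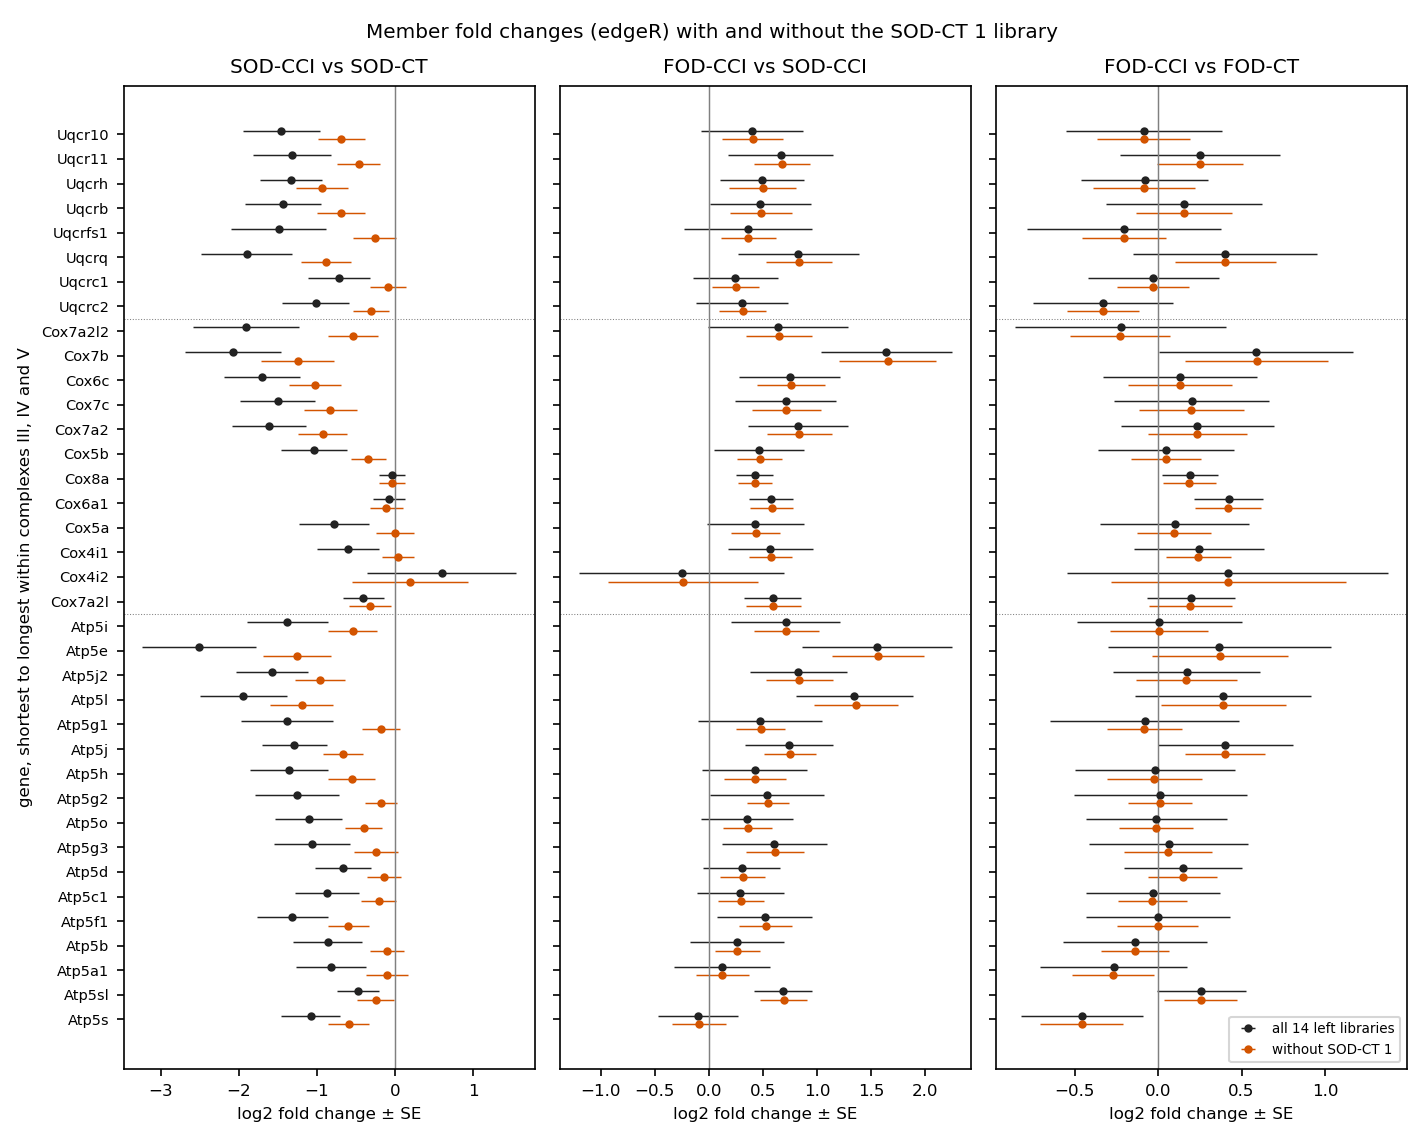
log2FC ± SE by edgeR (horizontal axis) of each tested member, shortest to longest within each complex (vertical axis), in SOD-CCI against SOD-CT, FOD-CCI against SOD-CCI and FOD-CCI against FOD-CT, with all libraries (black) and without SOD-CT replicate 1 (orange). Leaving that library out moves the SOD-CCI against SOD-CT values from a median of −1.29 to −0.37 and leaves FOD-CCI against SOD-CCI at 0.51.

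Injured and contralateral DRG were next compared within the same rats, which entered the model as blocks. In SOD-CCI rats the median was −0.31, with 36 of 37 members lower on the injured side (47.8% of all 14549 genes were). By edgeR 0 members were called, against 0.131% of all genes, and by DESeq2 0 as well, against 2.32% of all genes higher and 0.921% lower. At the member level 2 were lower at an unadjusted p under 0.05 (3.14% of all genes): Uqcrb at −0.70 ± 0.29 and Atp5o, the stator protein OSCP, at −0.63 ± 0.26. Next were Atp5i (subunit e of the membrane part) at −0.50 ± 0.23, Atp5s at −0.50 ± 0.32 and Atp5g3 at −0.47 ± 0.26. The genes that led between groups were near 0 here, with Atp5e at −0.07 ± 0.31 and Cox7b at −0.04 ± 0.30, and their contralateral levels were low as well: Atp5e was at 452.4, 325.7 and 315.0 FPKM on the right side. Rat by rat, the median over members was −0.58, −0.34 and 0.02, and 16 of 37 were lower on the left in all 3 rats, against 19.9% of all genes. The median was −0.18 without the rat of replicate 1 and −0.48 without that of replicate 3.

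In FOD-CCI rats the median was 0.00, with 16 members above and 21 below 0 (54.3% and 45.7% of all genes). By edgeR 0 members were called (0.0137% of all genes), and by DESeq2 0 (1.24% of all genes higher and 0.57% lower). The rats went different ways, with medians of 0.33, 0.04 and −0.54, and without replicate 1 or replicate 3 the median was −0.21 or 0.22. The 2 DRG of the rat of replicate 1 differed in markers. Neuron markers summed to 31030 CPM on the left and 5696 on the right, and spinal cord markers to 3152 and 5362. The part of this in its median was not tested. Cox4i2 was at −1.23 ± 0.66, Atp5d (the delta subunit) at 0.27 ± 0.30, Uqcr11 at 0.24 ± 0.23, Atp5c1 (the gamma subunit) at −0.23 ± 0.23 and Cox5a at 0.23 ± 0.24. In the rat of replicate 1 Atp5d was at 610 FPKM on the left and 257.6 on the right, and in the other rats it was lower on the left. A single member was lower on the left in all 3 rats, against 10.9% of all genes. The difference between diets in this side effect had a median of 0.23, with 36 of 37 above 0 (53.2% of all genes). By edgeR 0 were called (percent called 0%), by DESeq2 0 (0.0206% of all genes higher and 0.392% lower), and 0 reached an unadjusted p under 0.05 (0.804% higher and 2.11% lower). The median ran from 0.03 without FOD-CCI replicate 1 to 0.56 without FOD-CCI replicate 3.

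On the uninjured side, most members were also higher under fish oil. FOD-CCI contralateral against SOD-CCI contralateral had a median of 0.29, with 30 of 37 above 0 (53% of all 14007 genes were). Cox7b was at 365.9, 1193 and 951.2 FPKM against 349.5, 248.5 and 257.2, at 1.57 ± 0.63. Atp5e was at 480.9, 1190 and 1355 against 452.4, 325.7 and 315.0, at 1.49 ± 0.75, and Atp5l was at 1.27 ± 0.62. The low FOD library in each was replicate 1, the one with spinal cord transcripts and few neuronal ones. By edgeR 0 were called (percent called 0%), with an adjusted p of at least 0.697, and Cox7b alone reached an unadjusted p under 0.05 (4.5% of all genes were higher at it). DESeq2 called 0 (0.328% of all genes higher), and without SOD-CT replicate 1 it called Cox7b (adjusted p = 0.053) and Atp5e (adjusted p = 0.0729), with 1.33% of all genes called higher. With length taken out and all libraries kept, the median was −0.05. Without SOD-CCI contralateral replicate 1 it was 0.65, without replicate 3 of that group 0.12 and without FOD-CCI contralateral replicate 3 0.17.

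Against sham, SOD-CCI contralateral had a median of −0.79 with all libraries, with 34 of 37 below 0 (51.7% of all genes), and of 0.06 without SOD-CT replicate 1, with 20 of 37 above 0 (49.8% of all genes). DESeq2 called Atp5e and Cox7b lower with all libraries (0.371% of all genes) and 0 without that library (0.11% of all genes), and edgeR called 0 in both (percent called 0%). Without that library Cox7b was at −1.19 ± 0.45 and Atp5e at −1.17 ± 0.45, each with groups that did not overlap, while Atp5a1 was at 0.37 ± 0.23. The comparison shares the SOD-CT libraries with that of SOD-CCI. FOD-CCI contralateral against FOD-CT had a median of 0.19, with 32 of 37 above 0 (49.3% of all genes) and 0 called by edgeR or DESeq2 (percent called 0% by both). The median was 0.08 without FOD-CT replicate 1 and 0.38 without FOD-CT replicate 2. Cox4i2 was at 1.56 ± 0.97 there, from levels of at most 7.66 FPKM.

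Other genes of the pathway were read by lists. In FOD-CCI against SOD-CCI with all libraries, 0 genes of these lists were called by edgeR (0% of all genes) or by DESeq2 (0.0138% of all genes higher). At an unadjusted p under 0.05 by edgeR 1 gene was higher, Uqcc3, against 3.87% of all genes. Without SOD-CT replicate 1, DESeq2 called Uqcc2 and Uqcc3, both assembly factors of complex III, higher (0.959% of all genes) and edgeR called 0 (0%). The 5 genes of complex II and cytochrome c were all above 0, with a median of 0.49. Assembly factors were closer to 0, with medians of 0.15 for complex III (6 genes), 0.34 for complex IV (20 genes) and 0.27 for complex V (4 genes). Uqcc3 was at 0.81 ± 0.34, and Cmc1, which binds Cox1 during assembly of complex IV, was at 1.24 ± 0.68. The 12 tested regulators had a median of −0.07, with Ppargc1a (PGC-1alpha) at −0.26 ± 0.44, Nrf1 at 0.00 ± 0.36, Gabpa at 0.34 ± 0.32 and Tfam, which packs mitochondrial DNA, at 0.37 ± 0.47. In SOD-CCI against SOD-CT the medians with all libraries were −1.08 for complex II and cytochrome c, −0.35, −0.46 and −0.81 for the assembly factors of III, IV and V, and −0.13 for the regulators. Without SOD-CT replicate 1 they were −0.23, −0.16, −0.19, −0.39 and, over 13 regulators, −0.18. By edgeR 0 genes of these lists were called in either fit (0% of all genes). At an unadjusted p under 0.05 with all libraries 2, 1, 3, 3 and 3 were lower in the same order, against 8.8% of all genes. DESeq2 with all libraries called Cycs (cytochrome c), Sdhd (a membrane anchor of complex II), Uqcc2 and Fmc1 (an assembly factor of complex V) lower (2.87% of all genes), and without that library 0 (0.228% lower). Among subunits that the symbol rule misses, Cyc1 (cytochrome c1 of complex III) was at 733.7, 168, 155.6 and 167 FPKM in SOD-CT and at 149.8, 123.5 and 137.3 in SOD-CCI. Its log2FC by edgeR was −1.11 ± 0.47 with all libraries and −0.25 ± 0.22 without SOD-CT replicate 1, and it was at 0.33 ± 0.46 in FOD-CCI against SOD-CCI.

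Other gene families showed differences of the same direction. In FOD-CCI against SOD-CCI the median was 0.57 for the 35 tested Nduf genes of complex I, 0.66 for 92 cytosolic ribosomal protein genes and 0.35 for 73 mitochondrial ribosomal protein genes. In SOD-CCI against SOD-CT it was −1.10, −0.71 and −0.69 in the same order with all libraries, and −0.29, −0.30 and −0.25 without SOD-CT replicate 1, with 36 Nduf genes tested. DESeq2 called 11, 23 and 8 of them lower in SOD-CCI with all libraries (2.87% of all genes) and 0 without that library (0.228%). Without that library it called 6, 30 and 3 higher in FOD-CCI against SOD-CCI (0.959% of all genes). With all libraries it called 0 higher there (0.0138%). By edgeR 0 were called in these fits (0% of all genes). At an unadjusted p under 0.05 with all libraries, 23, 41 and 32 were lower in SOD-CCI against SOD-CT, against 8.8% of all genes. In FOD-CCI against SOD-CCI 4, 36 and 5 were higher, against 3.87% of all genes. The DESeq2 counts for the lists and families were added after seeing the data. No test of the difference between these lists and the members was made.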

How the data were processed

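Poly-A selected RNA of 20 DRG from 14 rats was sequenced. Per the labels and methods, the authors used fastp for trimming, HISAT2 for alignment and featureCounts 1.5.0-p3 for counting. The deposited counts are raw. The deposited FPKM values were scaled by the authors on DESeq2 size factors. Build, strand setting and handling of multiply aligned reads are not given in the sources used here, so genes with near-identical copies or pseudogenes are uncertain. All columns could be assigned to samples (0 left over), and no pair of replicates agreed within sampling noise. The labels do not say whether a library pools several ganglia, and p-values measure the spread between libraries.

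Counts were analyzed in R 4.3.3 with edgeR 4.0.16 (TMM, two-sided quasi-likelihood test) and DESeq2 1.42.0 as the alternative. A gene was tested where 90% or more of a model's libraries held 10 or more counts. It was called where the fold change was 1.2 or more and the p, adjusted after Benjamini and Hochberg over all genes, did not exceed 0.1, the study's thresholds. One model held the 14 left libraries, one the 12 paired libraries with the rat as a block, and one the 13 contralateral and sham libraries. Deviations from the group means correlated within all 6 rats (0.11 to 0.43), and the pairing comes from the labels. Libraries of the same number from different rats ran from −0.27 to 0.57, so these correlations are no check of the pairing. A length correction subtracted a lowess curve (span 0.3) of log2 level on gene length per library. The fits were also run on simulated counts with known changes. Those counts held no outlying library, tissue mixture, length difference or rat effect, so the run is no check of the fits under such differences. Promoters were taken from the first listed row per gene.

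Named genes were the 8 largest and 4 smallest differences in FOD-CCI against SOD-CCI, the 5 largest in the injury and side comparisons, Atp5e, Atp5j2 and Atp5l, the paralogs, the core subunits, members called, and the ends of each level order. The members and lists were chosen with earlier results of these data known. Precision is limited by 3 or 4 rats per group, not by depth.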

Additional observations from a re-analysis of the deposited data

Results flagged for a closer look

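There were 32 sets of 4 libraries (SOD-CT and FOD-CCI, for the reported genes and sums). In 15 of them a library's gap to its nearest neighbor, as a share of the group's range, exceeded Dixon's critical value for 4 samples. Chance gives that in about 1 in 20 single sets. The sets share the same libraries and the genes were chosen with earlier results known, so the number 15 cannot be set against chance. Of the 15, 9 were in SOD-CT, and the library was replicate 1 except for Cox6a1. The gap share was 0.832 for Atp5e (5662 against 1347 FPKM), 0.846 for Uqcrq (791.4 against 204.3), 0.936 for Atp5a1 (1413 against 406), 0.938 for Uqcrc1 (500.9 against 160.8), 0.956 for Cox4i1 (2071 against 628), 0.970 for Cox6a2 (2331 against 70.4), 0.976 for Cox8b (2024 against 49.9) and 0.856 for the sum of complex V (28690 against 8680). For Cox6a1 it was replicate 2 that stood apart, at 696.3 against 616.2 FPKM, with a share of 0.849.

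In FOD-CCI, replicate 2 was far above the other libraries for Atp5e (1877 against 760.4 FPKM, share 0.940), Atp5l (1793 against 804.9, share 0.910) and Cox7b (1717 against 652.4, share 0.884). Replicate 1 was far above them for Atp5a1 (577 against 327.2, share 0.917) and Uqcrc1 (248.8 against 146.3, share 0.861). Cox8b was at 1.248 FPKM in replicate 1 and listed at 0 in the other FOD-CCI libraries. Any level above 0 there would give its share of 1.000.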

How the results depend on the processing

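By edgeR 0 members were called in all 11 comparisons under all alternatives. DESeq2 called 15 in SOD-CCI against SOD-CT, 7 in the interaction and 2 in SOD-CCI contralateral against SOD-CT. Without SOD-CT replicate 1, a setting chosen after seeing the data, it called 3 in FOD-CCI against SOD-CCI and 2 between contralateral groups, and without FOD-CCI replicate 2 as well, also chosen then, 5 in SOD-CCI against SOD-CT. The DESeq2 medians under the first of these settings were −0.381 for SOD-CCI against SOD-CT, −0.012 for FOD-CT against SOD-CT, 0.458 for the interaction and 0.071, with the sign turned, for SOD-CCI contralateral against SOD-CT. Under the second the first 3 were −0.379, −0.011 and 0.358. By edgeR with gene length taken out and all libraries kept, these 3 were −0.674, −0.423 and 0.502. In that fit the median was 0.162 for FOD-CCI against SOD-CCI, −0.377 for SOD-CCI contralateral against SOD-CT and −0.054 between contralateral groups. Without SOD-CT replicate 1 and FOD-CT replicate 2, both with muscle transcripts, the edgeR medians were −0.354, −0.135 and 0.537, and SOD-CCI contralateral against SOD-CT turned to 0.063.

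Leaving out 1 library at a time moved the median from −1.52 to −0.37 for SOD-CCI against SOD-CT, from −0.987 to −0.005 for FOD-CT against SOD-CT, from 0.45 to 1.56 for the interaction, from −1.131 to 0.056 for SOD-CCI contralateral against SOD-CT, from 0.12 to 0.65 between contralateral groups, from 0.028 to 0.556 for the diet difference in the side effect and from 0.38 to 0.63 for FOD-CCI against SOD-CCI. The first 4 ranges have SOD-CT replicate 1 at the end nearest 0 or past it. The cause was not tested.

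Some single genes turned sign. In SOD-CCI against SOD-CT, Cox4i1 ran from −0.784 to 0.041 with 1 library left out, the upper end being without SOD-CT replicate 1 (0.033 by DESeq2, and 0.035 with FOD-CCI replicate 2 also out), and was at 0.060 without both muscle libraries. There Cox6a1 was at 0.357 and Cox8a at 0.455 with length taken out, and with 1 library left out they ran from −0.234 to 0.005 and from −0.167 to 0.031. In FOD-CCI against SOD-CCI, Cox8a was at −0.087 with length taken out. Atp5a1 ran from −0.159 to 0.272 and Uqcrc1 from −0.022 to 0.338 with 1 library left out, the lower ends being without FOD-CCI replicate 1 and, with the same values, without the libraries with spinal cord transcripts.

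With the replicate number as a block, the medians of the left comparisons were −1.18 for SOD-CCI against SOD-CT, 0.13 for FOD-CCI against FOD-CT, 0.57 for FOD-CCI against SOD-CCI, −0.64 for FOD-CT against SOD-CT and 1.10 for the interaction, and those with contralateral DRG were −0.79, 0.20 and 0.41. Without the rat block the paired medians were −0.36, −0.01 and 0.31. No call changed. The number is only a label between different rats, and the labels name no shared batch. Even so, FOD-CT and FOD-CCI libraries of the same number deviated together (0.43, 0.24 and 0.19). So did FOD-CT and FOD-CCI contralateral libraries (0.57, 0.18 and 0.22).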

Other observations

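Several rows near the members were outside the symbol rule or its biotype. Usmg5, a small subunit of ATP synthase dimers, was at 2949, 558.9, 442.5 and 1034 FPKM in SOD-CT, at 350, 201.6 and 288.9 in SOD-CCI and at 687.6, 1993, 680.3 and 552.1 in FOD-CCI. Its log2FC by edgeR in SOD-CCI against SOD-CT was −2.10 ± 0.64 with all libraries and −1.27 ± 0.49 without SOD-CT replicate 1. In FOD-CCI against SOD-CCI it was 1.80 ± 0.63 with all libraries and 1.18 ± 0.36 without SOD-CT replicate 1 and FOD-CCI replicate 2, with an adjusted p of 0.859 and 0.796. These settings were chosen after the values were seen. Atpif1, the inhibitor that stops ATP synthase from running backward, was at 0.63 ± 0.23 in FOD-CCI against FOD-CT (unadjusted p = 0.0144, adjusted p = 1 by edgeR) and at 0.41 ± 0.22 in FOD-CCI against SOD-CCI. The row named Cox6b1 is annotated as a pseudogene and was therefore no member, and it was at 875.8, 279, 231.4 and 240.3 FPKM in SOD-CT and at 259.9, 241.8 and 254.5 in SOD-CCI. Its log2FC between these groups was −0.64 ± 0.39 with all libraries and 0.01 ± 0.19 without SOD-CT replicate 1, and in FOD-CCI against SOD-CCI it was 0.30 ± 0.38.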
